A study of Mus musculus with 24 samples.

Results

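The genes described here are the Hox genes of the 4 mouse Hox clusters, taken as every row of the count table whose symbol is Hox, a cluster letter from a to d and a number. The rule found 39 genes of 23283, with 11 in Hoxa, 10 in Hoxb, 9 in Hoxc and 9 in Hoxd. They were followed through 24 RNA libraries of 6 mouse cell groups, each library made from the cytosolic, oligo-dT-primed RNA of 1000 cells in a well. Bulk MEF (4 libraries) were untreated mouse embryonic fibroblasts grown in DMEM with 10% FBS, and the labels class them as unsorted and slow cycling. Fast MEF and slow MEF (4 libraries each) had Yamanaka factors induced for 6 days by 2 µg/ml doxycycline, in mouse ES cell medium with LIF, and were separated by CFSE, a dye that each division dilutes, after 48 hours of dilution. The iPS group (4 libraries) was factor-independent and Oct4:GFP+, grown in mouse ES cell medium without doxycycline and labelled fast cycling. Granulocyte monocyte progenitors (GMP), kept in serum-free medium with cytokines that include SCF, IL3 and Flt3L, were sorted on CFSE after 24 hours into 3 slow GMP and 5 fast GMP libraries. The labels used here do not give the strain, the age, the promoter of the factors or whether replicates came from separate cultures. Between bulk MEF and the induced MEF, the factors, the medium and the sort differ together and cannot be told apart.

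Hox genes encode homeodomain transcription factors that give cells their address along the body axis and along the limb. Their order on the chromosome matches the order of their domains in the embryo, and genes of the same number in different clusters are paralogs that descend from one ancestor. Fibroblasts keep a Hox code of the place they came from, and in blood progenitors Hoxa genes such as Hoxa9 support self-renewal. Hox genes are known to be held silent in pluripotent cells by Polycomb group proteins. Members are called anterior here for paralog groups 1 to 4, central for 5 to 8 and posterior for 9 to 13.

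Paralogs of numbers 9 and 10 recur in the results. The homeobox, the stretch that encodes the DNA-binding homeodomain, is shown for Hoxb9, Hoxa10 and Hoxc10 because they led the members in bulk MEF by level per kilobase. Each is 180 bases from the GENCODE M21 transcript, 5′ to 3′, with the 18 bases of the recognition helix core in capitals.
Hoxb9: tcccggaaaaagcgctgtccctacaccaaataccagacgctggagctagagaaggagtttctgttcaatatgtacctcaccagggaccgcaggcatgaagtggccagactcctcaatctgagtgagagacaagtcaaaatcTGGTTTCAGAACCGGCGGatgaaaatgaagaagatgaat
Hoxa10: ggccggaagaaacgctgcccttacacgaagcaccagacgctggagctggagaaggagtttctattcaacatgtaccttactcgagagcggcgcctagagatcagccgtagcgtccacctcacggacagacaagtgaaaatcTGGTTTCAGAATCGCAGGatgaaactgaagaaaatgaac
Hoxc10: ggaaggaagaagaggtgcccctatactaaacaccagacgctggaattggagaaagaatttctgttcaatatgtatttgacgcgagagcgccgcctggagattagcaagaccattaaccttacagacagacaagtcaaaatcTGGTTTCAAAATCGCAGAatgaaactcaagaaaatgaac
Hoxa10 and Hoxc10 shared 145 of these 180 bases (80.6%). The longest run that their whole transcripts had in common was 17 bases, and it was 50 bases between Hoxb9 and Hoxc9. Transcripts of neighbouring Hox genes overlap at some places, among them Hoxc4, Hoxc5 and Hoxc6 and also Hoxb3 and Hoxb4, and the strand setting of the counting is unknown here, so counts of these genes are uncertain.

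Library totals ran from 2098846 to 18648132 counts, with the 8 GMP libraries at 2098846 to 4411526. Marker genes of the labelled cells were read as sums of CPM (reads scaled to a common library size) over each list. The 10 fibroblast markers summed to 21729 to 39888 CPM in bulk MEF and 40402 to 79859 in slow MEF. In fast MEF they summed to 2073 to 4909 CPM, in iPS to 103 to 369 CPM, and in GMP to 73.8 to 509 CPM, where Lum was at 0. The 6 keratinocyte markers summed to 15534 to 29687 CPM in fast MEF and 70.7 to 83.4 CPM in bulk MEF. The keratin Krt14 alone had 6570 to 11630 CPM in fast MEF, while the basal markers Krt5 and Trp63 were near 0 there, with at most 1.04 CPM each and no Trp63 count in 3 of 4 libraries. The 6 neural markers summed to 4962 to 6283 CPM in fast MEF, 267 to 835 in bulk MEF and 1994 to 2852 in iPS. Only 2 of these 6 had enough counts to be tested in fast against bulk MEF, where the 2 were higher. So the fast MEF libraries carry low fibroblast markers and high sums of markers of other cell types beside each Hox result that involves them, and their part in those results was not tested. In such bulk libraries, fewer cells with a transcript and less of it per cell cannot be told apart.

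In bulk MEF, the Hox signal was mostly posterior. Posterior genes summed to a median of 458 CPM (range 350 to 610 over the libraries), central genes to 53.0 CPM (36.8 to 166) and anterior genes to 28.1 CPM (19.9 to 45.5). Posterior genes thus took 72.8% to 89.4% of the Hox counts of a library. At least 10 counts in every library were found for 15 of the 39 genes, and Hoxd1 alone had no count in the group. The Hoxd cluster was low, at 7.91 to 17.4 CPM in sum, while Hoxc summed to 152 to 358 CPM, Hoxb to 131 to 202 CPM and Hoxa to 72.5 to 278 CPM.

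**Figure D1:**
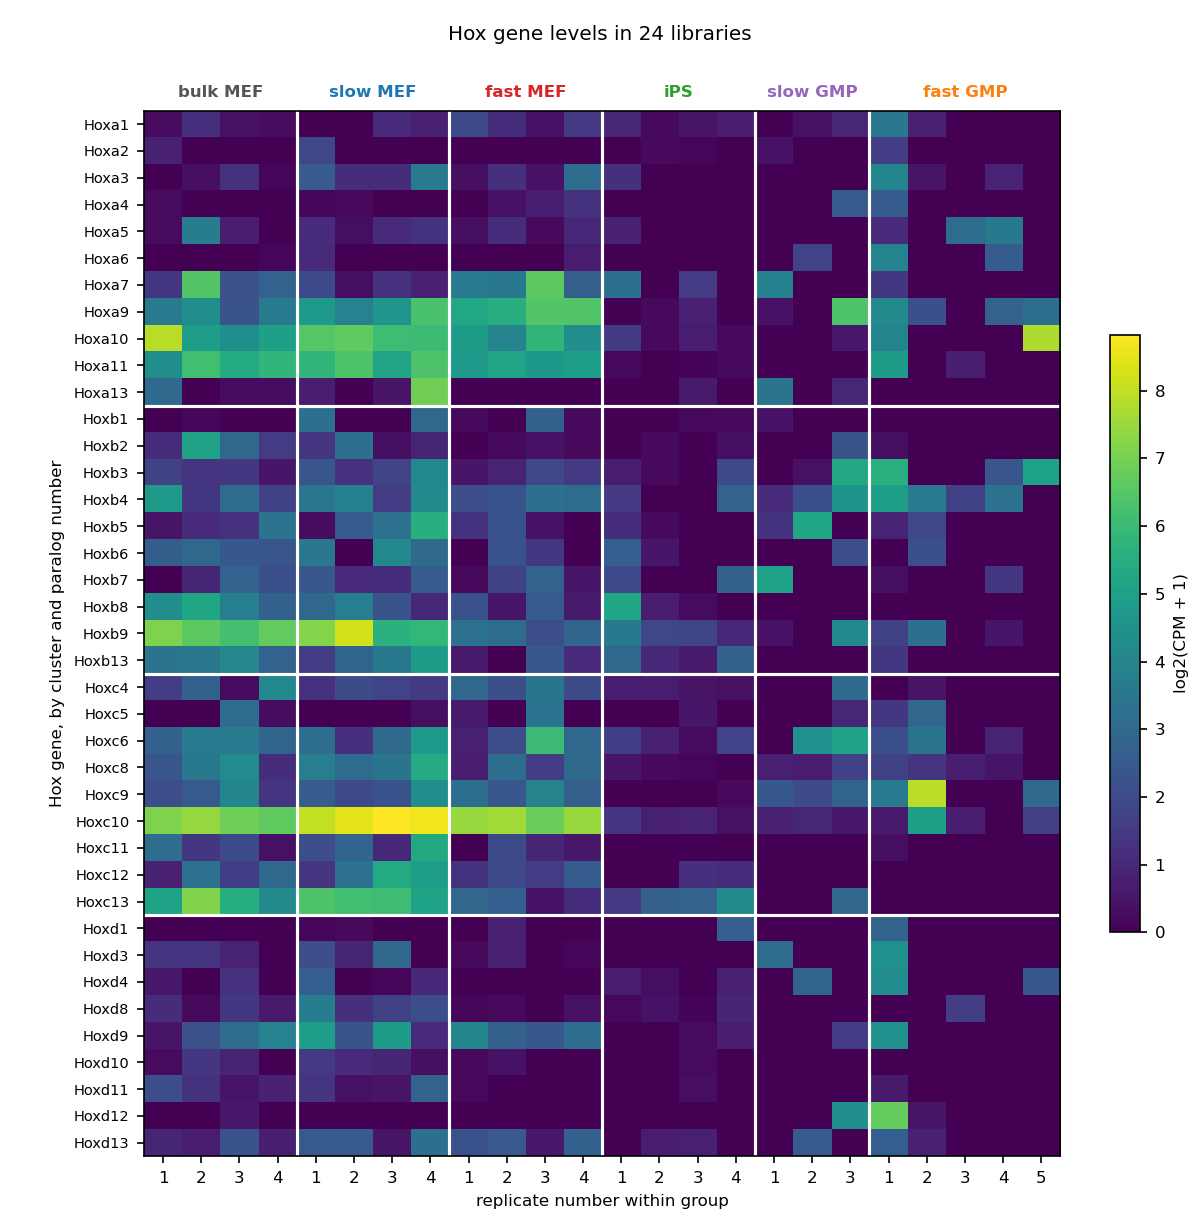
Level of each of the 39 Hox genes (rows, by cluster and position) in each of the 24 libraries (columns, by group), as the log2 of CPM + 1 on a colour scale from dark (low) to yellow (high). Hoxc10 is bright in all MEF libraries and dark in the iPS libraries, and the GMP libraries hold single high genes that differ from library to library.

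To set genes side by side, levels were taken per kilobase, with 1 transcript length per gene. Whether reads scale with length in these libraries was not tested, and Hoxa13 had no length and was not ranked. On this scale, Hoxc10 led bulk MEF at 69.2 ± 16.2 CPM per kb (SD, n = 4). Hoxb9 followed at 40.2 ± 10.2, Hoxa10 at 31.0 ± 40.8, Hoxc13 at 24.0 ± 23.1, Hoxa11 at 20.5 ± 9.37 and Hoxa7 at 12.2 ± 20.8 CPM per kb. Hoxc10 and Hoxb9 differed by more than either SD, while from Hoxb9 downward each gene differed from its neighbour in this order by less than the larger SD of the 2. Hoxc10 and Hoxa10 are paralogs with known roles in the hindlimb and lumbosacral region, Hoxb9 in the rib-bearing thorax, Hoxa11 in the zeugopod of the limb, and Hoxc13 in hair and nails. The large SD of Hoxa10 came from 1 library, since its levels were 236, 29.9, 20.1 and 31.3 CPM. That of Hoxa7 did so too, with 1.64, 87, 3.52 and 5.92 CPM.

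**Figure D2:**
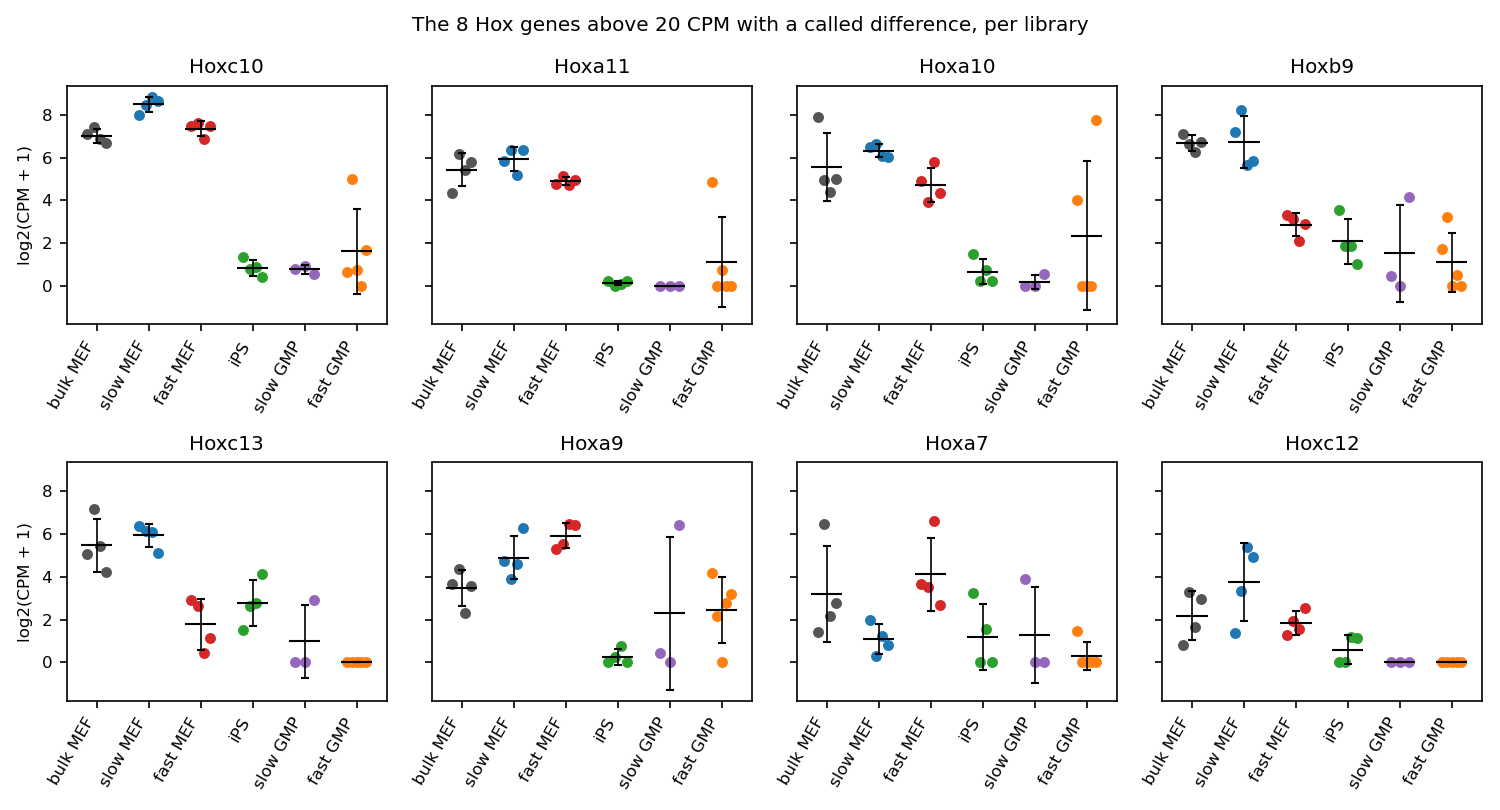
Level of 8 Hox genes as log2(CPM + 1), 1 panel a gene, where each point is a library and the line and bar are the group mean and SD on that scale. Hoxa9 is higher in each fast MEF library than in any bulk MEF library, whereas Hoxb9 and Hoxc13 are lower there than in bulk and slow MEF in every library.

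In slow MEF the posterior genes led again, at a median sum of 868 CPM (704 to 967), and Hoxc10 rose. Hoxc10 read 138, 172, 116 and 101 CPM in the bulk MEF libraries and 257, 356, 454 and 399.7 CPM in slow MEF. The 2 groups did not overlap, and the log2 fold change was 1.50 ± 0.27 (SE; edgeR quasi-likelihood test, adjusted p = 0.005732). Adjusted p-values here are Benjamini-Hochberg values over all genes tested in a comparison, with a threshold of 0.05, and fold changes use the scaling factors of the groups compared. Of 28 Hox genes tested, 1 rose and 0 fell, while 5.51% of 11253 genes rose and 4.99% fell (10.5% in either direction). Genes that did not reach a minimum count in enough libraries were left out by a filter on counts. A gene can pass it through 1 group alone, so counts over tested members are not counts over all 39. A share of 1 in 28 is below that background. The fold change was positive for 23 Hox genes and negative for 5, with a Hox median of 0.50 on the log2 scale against 0.03 over all genes. All 13 posterior genes tested were positive, but 12 of them did not pass. Hoxa10 (0.03 ± 0.68) and Hoxc13 (0.13 ± 0.57) were near 0 and changed sign when some single libraries were left out. These genes were read in the same libraries, so their signs are not independent.

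Several other genes varied between libraries within slow MEF or within bulk MEF by as much as between the groups. Hoxa10 had a log2 fold change of 0.03 ± 0.68 and levels of 88.5, 99.9, 66.2 and 64.7 CPM in slow MEF. Without bulk MEF replicate 1, the library at 236 CPM, Hoxa10 was higher in slow MEF by 1.58 on the log2 scale (edgeR adjusted p = 0.0318) and 3 Hox genes passed, the third being Hoxa7 at -4.57 (edgeR adjusted p = 0.0444). Without bulk MEF replicate 3 the count was 2, with Hoxa3 added. Hoxb9 read 145, 298, 48.9 and 57 CPM in slow MEF, which spans the bulk MEF levels, and its log2 fold change was 0.42 ± 0.51. Hoxa13, a gene of the distal limb and the genital tubercle, had 120 CPM in slow MEF replicate 4 and at most 0.633 in the other 3 libraries.

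In fast MEF against bulk MEF, Hoxb9, Hoxc13, Hoxb8 and Hoxb2 fell, Hoxa9 rose, and Hoxc10, the most abundant member, did not pass the test. That makes 1 higher and 4 lower of 24 tested, beside 16.5% higher and 18.4% lower (34.9% in all) of 11335 genes, so the share of Hox genes called is not above the background. The median log2 fold change was -0.77 for the Hox genes and -0.05 over all genes.

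Hoxb9 read 138, 97, 74.6 and 105 CPM in bulk MEF and 9.08, 7.7, 3.28 and 6.35 CPM in fast MEF. Its log2 fold change was -4.06 ± 0.38 (edgeR adjusted p = 3.033e-05). Every fast MEF library lay far below the lowest bulk MEF library. Hoxc13 read 32.6, 143, 42.9 and 17.6 CPM in bulk MEF and 6.54, 5.19, 0.345 and 1.21 CPM in fast MEF, a log2 fold change of -4.24 ± 0.91 (edgeR adjusted p = 0.004783). Both genes were lower in every fast MEF library than in any bulk MEF library.

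Hoxa9, the paralog of Hoxb9 in the Hoxa cluster, went the other way. It read 11.7, 19.6, 3.93 and 11.1 CPM in bulk MEF and 38.2, 45.4, 87.4 and 84.6 CPM in fast MEF, with no overlap. The log2 fold change was 2.40 ± 0.52 (edgeR adjusted p = 0.005135). Slow MEF lay between, at 25.7, 14.1, 23.4 and 77.7 CPM, and fast against slow MEF gave 0.74 ± 0.54 (edgeR adjusted p = 0.3256). Without slow MEF replicate 4, the library at 77.7 CPM, that difference was 1.46 (edgeR adjusted p = 0.0354).

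All 9 Hoxb genes tested had a negative fold change in fast against bulk MEF, with a median log2 of -2.02, and 3 of them fell. The other 6 did not pass, among them Hoxb3 (-0.11 ± 0.82), Hoxb7 (-0.29 ± 1.32) and Hoxb4 (-0.76 ± 0.84). Hoxb1, which was not tested, had 36 counts in fast MEF, mostly in 1 library, and 1 in bulk MEF. Hoxb2 (33.3 CPM in bulk MEF replicate 2, 1.16 to 6.64 in the other 3) fell by 6.08 ± 1.34 on the log2 scale (edgeR adjusted p = 0.005568). Hoxb8, a gene known for its part in myeloid cells and microglia, fell by 3.05 ± 0.89 (edgeR adjusted p = 0.02186). Its call was lost without bulk MEF replicate 2, at -2.53 (edgeR adjusted p = 0.061). The Hoxb sum was 131 to 202 CPM per library in bulk MEF, 95 to 346 in slow MEF and 18.4 to 37.3 in fast MEF, so the fast MEF range lay below the others. Hoxb9 alone made up much of it, with a mean of 104 CPM in bulk MEF and 6.60 CPM in fast MEF. The Hoxc sum in fast MEF, 199.9 to 226 CPM, lay inside the bulk MEF range of 152 to 358 CPM.

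By position, the posterior genes of fast MEF summed to a median of 318 CPM (310 to 343), below the 350 to 610 CPM of bulk MEF. They made up 59.2% of the Hox counts of fast MEF replicate 3, where Hoxa7 and Hoxc6 were high, and up to 90.4% in the others. Central genes summed to a median of 27.9 CPM (19.2 to 186) and anterior genes to 19.1 CPM (12.5 to 28.1).

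**Figure D3:**
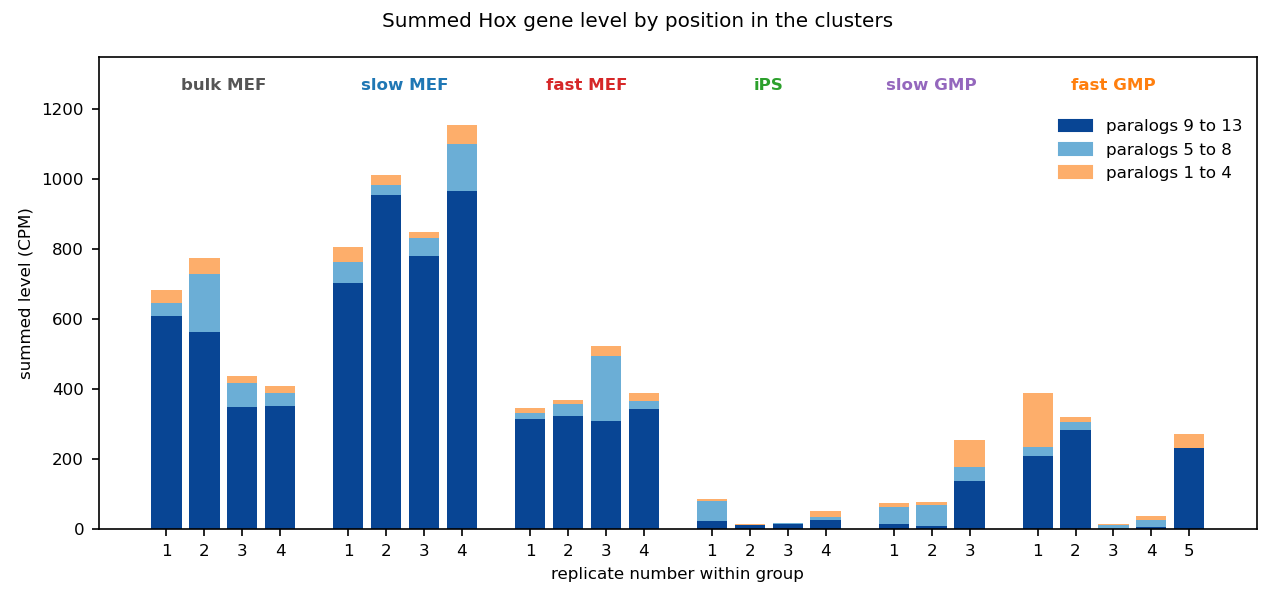
Summed CPM of the Hox genes in each library (stacked bars, 1 bar a library, by group), split into paralogs 9 to 13, 5 to 8 and 1 to 4. The posterior part is tallest in slow MEF, at 704 to 967 CPM, and is 10.6 to 26.1 CPM in iPS.

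Hoxc10 read 175, 196, 114 and 177 CPM in fast MEF, and the difference from bulk MEF was 0.23 ± 0.25 on the log2 scale (edgeR adjusted p = 0.517). Per kilobase it still led, at 86.6 ± 18.6 CPM per kb (SD, n = 4), before Hoxa9 at 19.8 ± 7.97, Hoxa7 at 15.5 ± 21.8 and Hoxa11 at 12.7 ± 1.83. Hoxa11 differed from bulk MEF by -0.78 ± 0.39 on the log2 scale (edgeR adjusted p = 0.1502). Without bulk MEF replicate 1, the lowest bulk library for this gene, it was -1.04 (edgeR adjusted p = 0.0353).

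Between the 2 sorted gates of induced cells, 1 Hox gene was higher in fast MEF and 7 were lower, of 26 tested, against 14.4% higher and 17.3% lower (31.7% in all) of 11742 genes. The lower calls are 6 of 12 posterior genes tested, Hoxa10, Hoxa11, Hoxb9, Hoxc10, Hoxc12 and Hoxc13, and the central gene Hoxd8. The median log2 fold change was -1.29 over Hox genes and -0.11 over all genes. Of the 26, 21 were negative, including all 8 Hoxb genes tested, of which only Hoxb9 passed. This comparison and that of slow with bulk MEF share the slow MEF libraries.

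Hoxb9 was lower in fast than in slow MEF by 4.53 ± 0.64 on the log2 scale (edgeR adjusted p = 0.0006001). Hoxc13, at 81.5, 70.3, 67.1 and 33.9 CPM in slow MEF, fell by 4.40 ± 0.76 (edgeR adjusted p = 0.001816). These 2 genes had the non-overlapping gaps named above against bulk MEF as well. Hoxc10 fell by 1.30 ± 0.24 (edgeR adjusted p = 0.002534), from 257 to 454 CPM in slow MEF to 114 to 196 in fast MEF.

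The Hoxa genes of the limb and trunk showed smaller gaps. Hoxa11 read 55.8, 81.8, 34.9 and 81 CPM in slow MEF and 26.2, 34.3, 25 and 30.2 CPM in fast MEF, with the lowest slow library just above the highest fast one. Its log2 fold change was -1.27 ± 0.34 (edgeR adjusted p = 0.01607). Hoxa10, at 28.5, 14.3, 53.9 and 19 CPM in fast MEF, gave -1.57 ± 0.46 (edgeR adjusted p = 0.02326). Its adjusted p passed 0.05 when slow MEF replicate 2, or fast MEF replicate 1, 2 or 4, was left out, with values of 0.055 to 0.0637 in edgeR.

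Hoxa7 was the 1 gene higher in fast MEF. It read 2.95, 0.243, 1.37 and 0.769 CPM in slow MEF and 11.7, 10.6, 96.5 and 5.38 CPM in fast MEF, a log2 fold change of 4.48 ± 1.13 (edgeR adjusted p = 0.01243). The groups did not overlap, and fast MEF replicate 3 stood above the other 3. Against bulk MEF, where replicate 2 held 87 CPM, it gave 0.34 ± 1.26. Hoxc12, at 1.58, 9.08, 41.5 and 29.1 CPM in slow MEF and 1.45, 2.86, 1.9 and 4.9 CPM in fast MEF, gave -3.01 ± 0.88 (edgeR adjusted p = 0.02489). The libraries of its 2 groups overlap, and the call was lost without slow MEF replicate 3 or 4 or fast MEF replicate 1, 2 or 3, at an edgeR adjusted p of 0.053 to 0.0782.

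Many of these calls depend on which libraries enter the fit, and so do calls over all genes. In slow against bulk MEF, 1181 of 11253 genes were called when only those groups were fitted, and 56 of 15813 with all 24 libraries. The same change took fast against bulk MEF from 3958 of 11335 to 1513 of 15813 genes. It took fast against slow MEF from 3726 of 11742 to 1246 of 15813. With all 24 libraries in 1 model, the slow against bulk MEF call of Hoxc10 was lost (1.46, edgeR adjusted p = 0.457), as were those of Hoxa9 (2.42, edgeR adjusted p = 0.235) and Hoxb8 (-3.02, edgeR adjusted p = 0.236) in fast against bulk MEF. In fast against slow MEF, 6 of the 8 calls were lost, with edgeR adjusted p-values of 0.442 for Hoxc10, 0.575 for Hoxa11, 0.559 for Hoxa10, 0.125 for Hoxa7, 0.187 for Hoxc12 and 0.0713 for Hoxd8, while Hoxa13 was gained. Hoxb9 and Hoxc13 in fast MEF kept their calls against bulk and slow MEF under this and each of the other alternatives run.

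**Figure D4:**
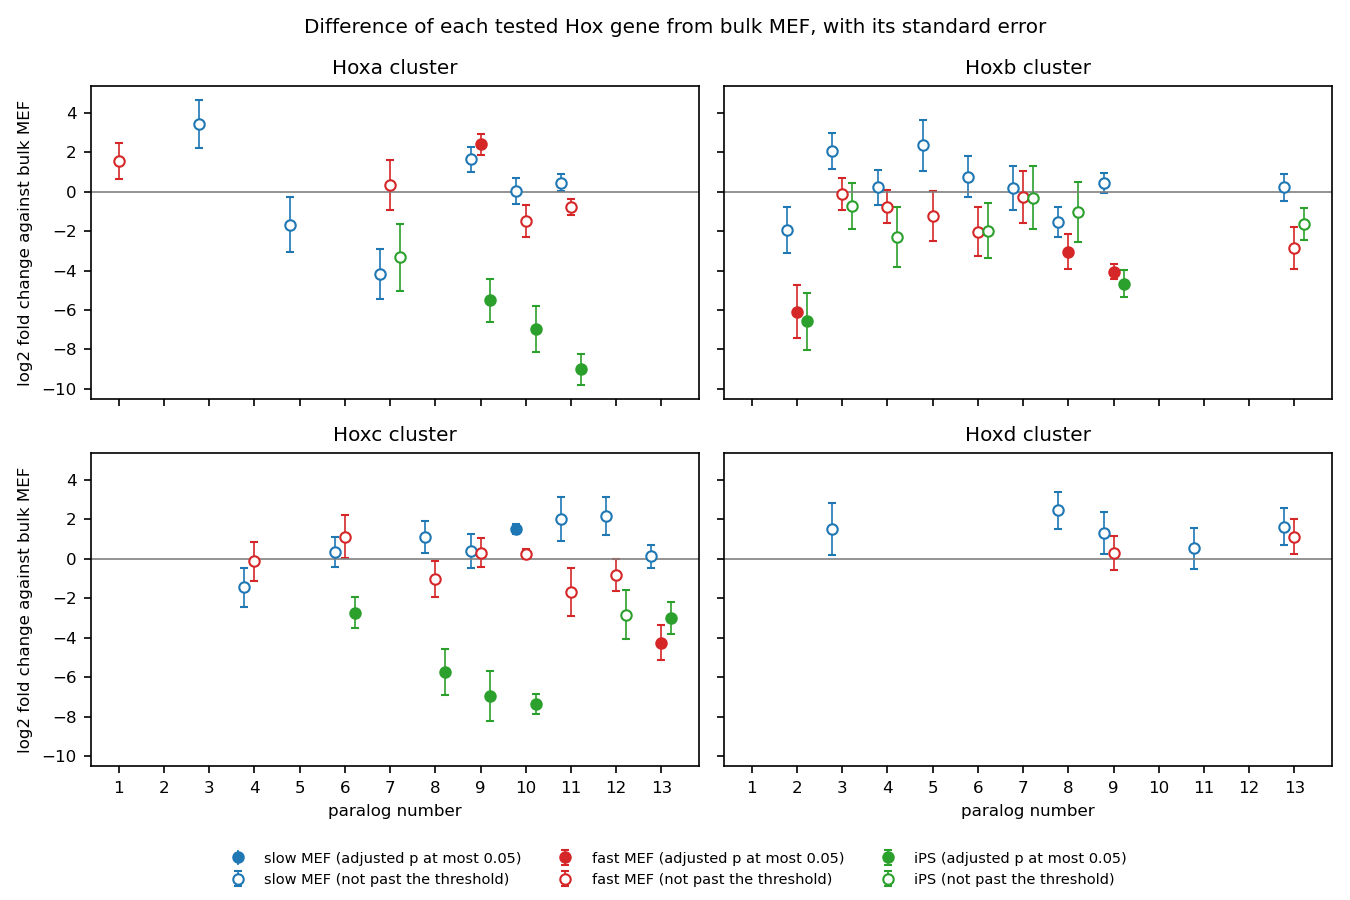
Log2 fold change against bulk MEF of each tested Hox gene by paralog number, 1 panel a cluster, for slow MEF, fast MEF and iPS (points, with bars of 1 SE; filled where past the adjusted p threshold). In iPS all 18 points lie below 0, while in fast MEF Hoxa9 at 2.40 and Hoxb9 at -4.06 stand on opposite sides.

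In iPS the Hox genes that were abundant in bulk MEF were low. Against bulk MEF, 10 of 18 Hox genes tested fell and 0 rose, beside 23.3% lower and 24.1% higher (47.4% in all) of 11736 genes, and all 18 had a negative fold change. The median was -3.17 on the log2 scale, against 0.10 over all genes. By cluster, 3 of 4 Hoxa genes, 2 of 8 Hoxb genes and 5 of 6 Hoxc genes tested fell, and no Hoxd gene was abundant enough to be tested. By position, 7 of 9 posterior, 2 of 6 central and 1 of 3 anterior genes fell.

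Hoxc10 read 1.52, 0.707, 0.843 and 0.32 CPM in iPS, and fell by 7.37 ± 0.52 on the log2 scale (edgeR adjusted p = 8.604e-06). Hoxa11, at 19.6, 70.2, 42.4 and 55 CPM in bulk MEF and at most 0.16 CPM in iPS, fell by 9.01 ± 0.78 (edgeR adjusted p = 2.107e-05). Only 4 counts of it were seen in the 4 iPS libraries together, so the size of this fold is imprecise. Hoxa10, at 1.82, 0.177, 0.645 and 0.16 CPM in iPS, fell by 6.98 ± 1.16 (edgeR adjusted p = 0.0008644).

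Members at under 20 CPM in bulk MEF fell as well. Hoxa9 fell by 5.51 ± 1.09 on the log2 scale (edgeR adjusted p = 0.002229). Hoxb2, Hoxc6 and Hoxc8 passed with log2 fold changes from -6.57 to -2.73. Hoxc9 had 2 counts in iPS and was 157-fold lower (95% exact Poisson interval 43.5 to 1.3e+03, which covers counting error only). The uncalled genes were Hoxa7, Hoxb3, Hoxb4, Hoxb6, Hoxb7, Hoxb8, Hoxb13 and Hoxc12.

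Some posterior signal was seen in iPS, at 26.4% to 78.4% of the Hox counts of a library, and its origin was not tested. The 3 genes with at least 10 counts in every iPS library were Hoxb9, Hoxb13 and Hoxc13, all posterior. Hoxb9 read 10.8, 2.65, 2.58 and 1.04 CPM, and was still lower than bulk MEF by 4.67 ± 0.70 (edgeR adjusted p = 0.0004686). Hoxc13 read 1.82, 5.31, 5.9 and 16.7 CPM, a log2 fold change of -3.01 ± 0.80 (edgeR adjusted p = 0.01123). With all 24 libraries in 1 fit the iPS against bulk MEF calls of Hoxc13 (edgeR adjusted p = 0.0614) and Hoxc6 (edgeR adjusted p = 0.184) were lost. The iPS level of 16.7 CPM in replicate 4 comes near the lowest bulk MEF level of 17.6 CPM. Hoxb13, a gene of the tail bud and prostate, gave -1.62 (edgeR adjusted p = 0.1265). Hoxb8 had 36.4 CPM in iPS replicate 1 and at most 0.619 CPM in the other 3.

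From fast MEF to iPS, Hoxc10 and the posterior Hoxa genes fell. Of 16 Hox genes tested, 8 fell and 0 rose, against 19.7% lower and 18.8% higher (38.4% in all) of 11882 genes, with a median of -3.66 beside 0.00 over all genes. The log2 fold change was -7.66 ± 0.46 for Hoxc10 (edgeR adjusted p = 6.569e-06), -8.28 ± 0.68 for Hoxa11 (edgeR adjusted p = 2.285e-05), -7.87 ± 0.91 for Hoxa9 (edgeR adjusted p = 0.0001641) and -5.50 ± 0.88 for Hoxa10 (edgeR adjusted p = 0.001082). Each of these 4 genes was lower in every iPS library than in any fast MEF library. Hoxc9 was 181-fold lower (50.2 to 1.5e+03), and Hoxc4, Hoxc6 and Hoxd9 passed with log2 fold changes of -3.58, -3.92 and -5.15. With all 24 libraries in 1 fit these 3 calls were lost, at edgeR adjusted p-values of 0.104, 0.102 and 0.0767. The Hoxc6 libraries overlapped, and its call was lost without fast MEF replicate 3, where it had 64.9 CPM, at -1.39 (edgeR adjusted p = 0.302), and without fast MEF replicate 4 or any single iPS library.

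Hoxb9 and Hoxc13, the 2 genes already low in fast MEF, did not pass from fast MEF to iPS. They gave -0.65 ± 0.73 (edgeR adjusted p = 0.5181) and 1.18 ± 0.91 (edgeR adjusted p = 0.3335), and none of 4 Hoxb genes tested passed. Set side by side, the fold changes against bulk MEF of these genes were -4.06 in fast MEF and -4.67 in iPS for Hoxb9, and -4.24 and -3.01 for Hoxc13. For Hoxa9 they were 2.40 and -5.51, and for Hoxc10 0.23 and -7.37. These comparisons share the bulk MEF libraries.

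The Hoxa genes at the posterior end, Hoxa9, Hoxa10 and Hoxa11, were lower together in iPS than in bulk and fast MEF. The 250 bases before the start of Hoxa9 and Hoxa11 (RefSeq, GRCm38.p6, minus strand) are shown for their unlike number of CpG, which are in capitals.
Hoxa9 at chr6:52227371-52227620: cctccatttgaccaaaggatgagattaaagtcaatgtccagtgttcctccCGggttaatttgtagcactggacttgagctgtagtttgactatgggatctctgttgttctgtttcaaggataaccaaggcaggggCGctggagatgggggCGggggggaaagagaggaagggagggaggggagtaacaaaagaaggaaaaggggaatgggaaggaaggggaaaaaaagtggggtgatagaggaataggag
Hoxa11 at chr6:52245811-52246060: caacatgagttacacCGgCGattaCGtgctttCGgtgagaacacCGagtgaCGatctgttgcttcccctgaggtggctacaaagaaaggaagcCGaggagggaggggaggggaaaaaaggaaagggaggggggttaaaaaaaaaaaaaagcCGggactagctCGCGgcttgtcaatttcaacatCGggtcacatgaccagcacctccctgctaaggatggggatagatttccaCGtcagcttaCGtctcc
They hold 3 and 13 CpG. The 22 Hox genes that matched the RefSeq promoter table had a median of 12 CpG, against 6 over 27025 promoters. CCAAT, searched on both strands, was in 13 of the 22 and in 34.5% of all promoters, and TATAAA in 3 of the 22 and in 13% of all. The Hox and cofactor motif TGATTNAT was in 1 of the 22, Hoxa2, and in 2.99% of all. These counts take the first listed start of each gene. At a second listed start, Hoxd11 held TGATTNAT and Hoxa10 held TATAAA and CCAAT. Such matches describe letters in the window.

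In GMP the Hox signal was sparse and uneven. Reads assigned to Rn45s and Lars2, which pick up ribosomal RNA, made up 19.9% to 48.9% of the counts of the GMP libraries and 3.05% to 11.7% in the other groups, and the part of this in the GMP results was not tested. The median number of Hox genes with at least 3 counts per library was 8 in slow GMP and 6 in fast GMP, against 28.5 in bulk MEF, 31.5 in slow MEF, 24.5 in fast MEF and 17.5 in iPS. The GMP libraries held fewer counts, and with counts thinned to the smallest library the medians of bulk, slow and fast MEF were 20.5, 24.5 and 19 and that of iPS was 6.5. Hoxb4, a gene known from blood stem cell expansion, had counts in 7 of 8 GMP libraries, with at least 3 in each of these. Hoxc8 and Hoxc10 also had counts in 7 of 8, but each reached 3 counts in only 1 slow and 2 fast GMP libraries. Hoxc9 had at least 10 counts in each slow GMP library.

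Single genes made up most of some GMP libraries' Hox counts. In fast GMP replicate 2, Hoxc9 had 240 CPM, which was 74.9% of the Hox counts of that library. In fast GMP replicate 5, Hoxa10 had 215 CPM, or 79.3%. Neither value recurred in another GMP library, where Hoxc9 was at most 11.2 and Hoxa10 at most 14.9 CPM.

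Hoxa9 read 0.364, 0 and 84.1 CPM in slow GMP and 16.9, 3.43, 0, 5.8 and 8.11 CPM in fast GMP. It was present in 6 of 8 libraries, with the top value in slow GMP replicate 3. Against bulk MEF it gave 0.32 ± 1.35 on the log2 scale (edgeR adjusted p = 0.9002). Fast GMP replicate 1, which had counts in 18402 genes, more than any other library, held 106 CPM of Hoxd12, 47.3 of Hoxb3 and 30.1 of Hoxb4. Slow GMP replicate 1 held 32.4 CPM of Hoxb7, and slow GMP replicate 2 held 36 CPM of Hoxb5.

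Between fast and slow GMP, 0 of 7 Hox genes tested passed in edgeR, 0 had an unadjusted p under 0.05, and DESeq2 called 0. Over all 10057 genes 0% passed, so the comparison made no call for any gene. At this depth and spread, Hox differences between the gates were not detectable.

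Against bulk MEF, 7 of 22 Hox genes tested fell in GMP and 0 rose, beside 9.79% lower and 11.5% higher (21.3% in all) of 12170 genes. They were Hoxa11, Hoxb2, Hoxb8, Hoxb9, Hoxb13, Hoxc10 and Hoxc13. Hoxc13 had no count in any of the 5 fast GMP libraries and in 2 of 3 slow ones, and fell by 7.96 ± 1.56 on the log2 scale (edgeR adjusted p = 0.005151). Hoxb8 had 0 counts in 8 GMP libraries and was at least 133-fold lower (floor of 3 counts in the 8 GMP libraries together; edgeR adjusted p = 0.00249). Hoxc10 gave -5.78 ± 1.19 (edgeR adjusted p = 0.003845) and Hoxb9 -4.79 ± 1.26 (edgeR adjusted p = 0.01571).

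The calls on Hoxa11 and Hoxb2 came from groups that overlap. Hoxa11 was 0 in 6 of 8 GMP libraries and 27.8 CPM in fast GMP replicate 1, above the 19.6 CPM of the lowest bulk MEF library. The Hoxb2 call was lost without slow GMP replicate 1 or 2, at edgeR adjusted p-values of 0.0519 and 0.0516. With all 24 libraries in 1 fit, 15 of 36 Hox genes tested fell and 0 rose. In that fit 5040 of 15813 genes were called in either direction, and the median over all genes was 0.36.

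Hox proteins bind DNA with partners of the TALE class, the Pbx, Meis, Pknox and Tgif families. Of 11 tested in iPS against bulk MEF, 4 fell and 1 rose in edgeR, with a list median of 0.33 on the log2 scale against 0.10 over all genes. A share of 5 in 11 is near the 47.4% of all genes called. Meis1, Meis2 and Meis3 were among those that fell, with log2 fold changes of -4.30, -2.17 and -3.21. In fast against bulk MEF, 2 of 9 fell and 0 rose, beside 34.9% of all genes called, and Meis2 was among those that fell (-1.14, edgeR adjusted p = 0.03163). In fast against slow MEF, 4 of 10 fell, among them Meis2, Pknox2 and Pbx3, and Tgif2, a repressor of the family, rose by 2.29 on the log2 scale (edgeR adjusted p = 0.004735), beside 17.3% lower and 14.4% higher of all genes. In slow against bulk MEF 1 of 10 rose, beside 5.51% of all genes, namely Pbx3, whose call was lost without some single libraries. Meis1, the partner of Hoxa9 in blood progenitors, read 50.2, 2.79 and 151 CPM in slow GMP and 5.16, 1.53, 0.673, 0 and 0.738 CPM in fast GMP. The groups overlapped, and the test gave -5.26 (edgeR adjusted p = 0.6621).

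Other factors that mark the origin of mesenchyme, such as the limb regulators Prrx1, Shox2 and Twist2, were read from a list of 32. Of 19 tested in iPS against bulk MEF 13 fell and 2 rose, and of 21 tested in fast against bulk MEF 11 fell and 0 rose. Over all genes, 23.3% fell and 24.1% rose in iPS, and 18.4% fell and 16.5% rose in fast MEF. The list medians were -4.54 and -2.27 on the log2 scale, against 0.10 and -0.05 over all genes. Prrx1 gave -2.45 in fast MEF and -6.38 in iPS, and Shox2 -3.88 and -7.17, on the log2 scale against bulk MEF. In fast against slow MEF 13 of 20 fell and 0 rose, beside 17.3% and 14.4% of all genes, and in slow against bulk MEF 2 of 22 rose and 0 fell, beside 5.51% and 4.99%.

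Retinoic acid, a vitamin A derivative, induces Hox genes from the anterior end in embryos. Of its 19 listed pathway genes, 13 were tested in iPS against bulk MEF, where 6 fell and 1 rose, a share near the 47.4% of all genes called. In fast against bulk MEF 2 of 12 fell, among them Crabp1, which binds retinoic acid in the cytosol (-2.77), and 2 rose, among them Aldh1a1, which makes it (383-fold, 95% exact Poisson interval 131 to 1.86e+03, with 3 counts in bulk MEF). These 4 of 12 are near the 34.9% of all genes called. The list's median log2 fold change was -1.37 in iPS and -0.06 in fast MEF, against 0.10 and -0.05 over all genes.

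The MLL complex, which keeps Hox genes active, and its partners were read from 16 genes, all tested. In iPS against bulk MEF 5 rose and 1 fell, and in fast against bulk MEF 6 rose and 1 fell, beside 47.4% and 34.9% of all genes called in either direction. The medians of the list were 0.23 and 0.66 on the log2 scale, against 0.10 and -0.05 over all genes. Kdm6a, a demethylase that removes the Polycomb mark, gave 3.25 in iPS and 2.32 in fast MEF on the log2 scale. Aff1, an elongation factor fused to MLL in leukaemia, gave -1.60 in iPS and -1.98 in fast MEF.

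Genes next to the clusters were read from a list of 17. Of 15 tested in iPS against bulk MEF, 7 rose and 2 fell, with a median log2 fold change of 1.08, beside 24.1% higher and 23.3% lower of all genes and a median of 0.10. The difference between these genes and the Hox genes was not tested. Evx1, beside Hoxa13, was at least 116-fold higher (floor of 3 counts in the group of bulk MEF libraries), and Ttll6, on the Hoxb side, rose by 6.61 ± 0.94 (edgeR adjusted p = 0.0003624). Skap1, at the Hoxb1 side, fell by 3.15. In fast against bulk MEF 2 of 12 rose and 2 fell, near the 34.9% of all genes called. Cdx1, a homeobox gene that acts upstream of Hox genes in the embryo, had no count in bulk or fast MEF and was at least 16.3-fold higher in iPS. Of 25 noncoding RNAs of the clusters looked up, 10 matched a symbol in the table, and Gm53 fell in iPS by 2.82 (edgeR adjusted p = 0.006983). Over all these lists, 85 of 173 calls were lost with all 24 libraries in 1 fit and 49 without some single library.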

How the data were processed

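The authors deposited whole-number read counts for each gene symbol, not normalized. The submitters' processing notes name CASAVA 1.8.2, TopHat2 2.0.4, HTSeq and mm9. What each did, the gene models and the strandedness were not given in the sources used here. Groups were taken from the sample labels, and p-values measure the spread between libraries, which may be technical. None of 37 pairs of libraries within groups was identical.

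Each comparison was fitted on its own groups with edgeR 4.0.16 in R 4.3.3 (TMM, filterByExpr, robust quasi-likelihood F test, two-sided, Benjamini-Hochberg over all genes tested, threshold 0.05), without a block. For GMP against bulk MEF, the mean of both GMP groups was contrasted. Standard errors are the fold change over the square root of F. Levels per library are CPM with TMM factors over all 24 libraries, and levels per kb use GENCODE M21 transcript lengths. Floors (3 counts) and 95% exact Poisson intervals cover counting error only. The script was tested on simulated data. Alternatives were DESeq2 1.42.0, other scaling and filters, all libraries in 1 fit, a replicate block, removal of Rn45s and Lars2, and each library left out.

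Members, lists and tests were chosen with earlier results of these data known, and the keratinocyte list was first added after these data had been seen. Library values are given for called members with at least 20 CPM in the higher group, and other list genes are up to 4 called in the leading direction and 2 in the other. Hox genes outside this rule that are named, such as single high GMP values, were chosen after their values were seen. Figures used numpy 2.4.6, pandas 2.3.3 and matplotlib 3.10.9. A cofactor that the rule names is not reported here.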

Additional observations from a re-analysis of the deposited data

Results flagged for a closer look

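In each group of 4 or 5 libraries, the library at either end was set against its neighbours by Dixon's criterion for single outlying values. Chance meets it in about 1 in 20 groups where values are normally distributed. Here it was applied to CPM, which are often skewed to high values, so that rate does not hold and the number flagged is not read as an excess. Of 37 tests, 8 met it. Hoxa7 stood out in bulk MEF replicate 2 at 87.0 CPM (next 5.92) and in fast MEF replicate 3 at 96.5 CPM (next 11.7). Hoxa10 stood out in bulk MEF replicate 1 at 236 CPM (next 31.3) and in fast GMP replicate 5 at 215 CPM (next 14.9). Hoxa11 did so in fast GMP replicate 1 at 27.8 CPM (next 0.673), Hoxc10 in fast GMP replicate 2 at 30.9 CPM (next 2.21), and Hoxb9 in fast GMP replicate 2 at 8.39 CPM (next 2.30) and in iPS replicate 1 at 10.8 CPM (next 2.65). All 8 were the highest library of their group.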

How the results depend on the processing

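Of 39 Hox calls, 0 changed sign under any alternative, 14 were lost with all 24 libraries in 1 fit and 5 without some single library. With the stricter filter (5 CPM) 6 of 8 Hox genes tested passed in iPS against bulk MEF, beside 4640 of 9195 genes. Hoxa9, Hoxb2, Hoxc8 and Hoxc9 were left out by that filter and so were not tested. With DESeq2, 2 of 25 tested passed in slow against bulk MEF, the second being Hoxa3, beside 1977 of 10992 genes. With all 24 libraries in 1 fit, the counts of 36 Hox genes tested were 0 in slow against bulk MEF, 3 in fast against bulk MEF, 3 in fast against slow MEF (2 of them also called without the other groups, and Hoxa13) and 15 in GMP against bulk MEF. Over all 15813 genes tested in that fit, 56, 1513, 1246 and 5040 were called in these comparisons in turn. Without the other groups, the calls were 1181 of 11253, 3958 of 11335, 3726 of 11742 and 2594 of 12170 genes. The fit of all 24 libraries moved the median of all genes from 0.03 to 0.15 in slow against bulk MEF, from -0.05 to 0.12 in fast against bulk MEF and from 0.18 to 0.36 in GMP against bulk MEF. Leaving out 1 library gave 10 to 15 calls in iPS against bulk MEF, 1 to 3 in slow against bulk MEF, 4 to 6 in fast against bulk MEF, 6 to 9 in fast against slow MEF, 7 to 9 in iPS against fast MEF, 0 to 0 in fast against slow GMP and 6 to 10 in GMP against bulk MEF. The cause was not tested.

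Uncalled genes changed sign in places. In slow against bulk MEF, Hoxa10 gave -0.0023 with all 24 libraries in 1 fit and -0.30 to 1.58 with 1 library left out, Hoxc13 -0.19 to 1.05, and Hoxb9 -0.27 to 0.71. In fast against bulk MEF, Hoxa10 gave -1.97 to 0.042 and Hoxa7 -1.49 to 3.07. Same-numbered libraries did not deviate together (correlations -0.0999 to 0.085, none of the pairs above 0.1), so the numbers were not taken to pair them. With the replicate block, 11, 1, 6, 7, 8, 0 and 7 Hox genes passed in the comparisons in the order just given; Hoxc12 in fast against slow MEF (adjusted p = 0.057, edgeR), Hoxc6 in iPS against fast MEF (adjusted p = 0.326, edgeR) and Hoxb2 in GMP against bulk MEF (adjusted p = 0.0887, edgeR) lost their calls.

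Depth limits the number of members seen. In place of at least 3 counts, at least 1 count gave a median of 31.5 in bulk MEF, 29 in fast MEF and 13 in slow GMP, and at least 10 counts gave 24 in bulk MEF, 26.5 in slow MEF, 20.5 in fast MEF and 10 in iPS. Thinned to the smallest library, the medians were 20.5 in bulk MEF, 24.5 in slow MEF, 19 in fast MEF and 6.5 in iPS.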
